A study of Mus musculus with 6 samples.

Results

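The genes described here are 9 genes of hepatic glucose output and of the insulin response, Pck1, G6pc, Fbp1, Ppargc1a, Tat, Irs2, Igfbp1, Slc2a2 and Foxo1, out of 37074 genes with a probe on the array. They were chosen by name, through the RefSeq accession of each probe, and 11 probes belonged to them. All 9 were well above background on all 6 arrays, and all 9 were among the 22340 genes that were tested. Liver RNA of male L1-Tg mice was compared with that of male WT mice, with 3 arrays per group. L1-Tg mice were hemizygous for a transgene of human NPC1L1 driven in hepatocytes by the APOE promoter and had been backcrossed to C57BL/6J mice for at least 8 generations, and the WT mice were their littermates without the transgene. Both groups were fed a control-fat diet (CFD) ad libitum under a light/dark cycle of 12 h and 12 h with lights on at 7:00. Each array held RNA pooled from 2 or 3 mice, so replicate error here means the variation from pool to pool, and all L1-Tg mice came from the same transgenic line. The study's methods state that mice were not fasted before blood and bile were sampled, and give an age range for the study as a whole. The age of these pools and the hour at which their livers were taken were not given in the sources used here.

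The liver releases glucose between meals, when glucagon and glucocorticoids raise transcription of the genes for gluconeogenesis, and insulin after a meal turns the same genes down by moving the transcription factor FOXO1 out of the nucleus. The messengers of several of these genes turn over fast, so their levels in a liver sample follow how long ago the animal ate. For that reason the 9 genes were read here together with lists of genes that fasting or feeding is known to induce.

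Signals below are log2 values of the processed intensity relative to the 75th percentile of the same array, so a value of 0 is the signal of the probe at that percentile, and they compare arrays for the same probe and not different genes. Hepatocyte markers were well above background on all 6 arrays for 10 of 10 genes, with summed linear signals relative to the 75th percentile of 6799 to 8264 in L1-Tg pools and 7392 to 8227 in WT pools. Of these markers, 8 had a lower and 2 a higher mean in L1-Tg pools, with a median log2 difference of -0.11. The mouse Npc1l1 probe was well above background on 1 of 3 L1-Tg and 2 of 3 WT arrays and checks nothing about the human transgene. L1-Tg replicate 2 stood apart from the other arrays by messengers of pancreatic acinar cells. The summed signal of 9 acinar markers was between 11.15 and 107.4 in L1-Tg pools, with the highest value in L1-Tg replicate 2, against 10.08 to 11.56 in WT pools. The differences of the 9 genes are therefore also given without that array. All 6 arrays lay on 1 slide with the genotypes in different rows, so row and genotype cannot be told apart, and in bulk liver RNA fewer cells of a type and less RNA per cell cannot be told apart either.

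Promoter sequence was matched in RefSeq (GRCm38.p6) for 9 of 9 genes, as windows from 250 bases before to 50 bases after the start of transcription. The heptamer CAAAACA, the form in which FOXO factors bind insulin-responsive promoters, was searched on both strands and occurred in 3 of the 9 windows, those of G6pc, Igfbp1 and Irs2, and in 6.28% of 32851 promoter windows. The core TGACG of the cAMP response element occurred in the windows of Pck1 and Ppargc1a and in 20.8% of all windows. It is contained in the full element TGACGTCA, which was found in 0 of the 9 windows and in 1.79% of all. GTAAACA, another FOXO-binding form, TTGCGCAA, a palindrome bound by C/EBP factors, and AGAACA, part of the element of the glucocorticoid receptor, were each found in 0 of the 9 windows, against 3.65%, 0.183% and 19% of all windows. The 250 bases before the start are shown for the 3 genes that held CAAAACA and for Pck1, the member with the smallest p, with the match in capitals. The match in G6pc, Irs2 and Pck1 is on the strand opposite to the gene and reads as its reverse complement here. These letters describe the sequence and do not show that a factor was bound.
G6pc (chr11:101367466-101367715, + strand): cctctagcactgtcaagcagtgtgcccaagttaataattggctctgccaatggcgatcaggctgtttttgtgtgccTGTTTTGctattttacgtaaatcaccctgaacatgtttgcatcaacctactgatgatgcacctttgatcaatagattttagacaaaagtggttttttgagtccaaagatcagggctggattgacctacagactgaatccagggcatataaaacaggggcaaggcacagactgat
Igfbp1 (chr11:7197537-7197786, + strand): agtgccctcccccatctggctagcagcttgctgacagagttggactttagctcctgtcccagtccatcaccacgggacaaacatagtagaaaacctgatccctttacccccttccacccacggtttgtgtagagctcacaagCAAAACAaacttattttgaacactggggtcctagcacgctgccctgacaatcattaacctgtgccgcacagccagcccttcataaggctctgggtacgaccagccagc
Irs2 (chr8:11008930-11009179, - strand): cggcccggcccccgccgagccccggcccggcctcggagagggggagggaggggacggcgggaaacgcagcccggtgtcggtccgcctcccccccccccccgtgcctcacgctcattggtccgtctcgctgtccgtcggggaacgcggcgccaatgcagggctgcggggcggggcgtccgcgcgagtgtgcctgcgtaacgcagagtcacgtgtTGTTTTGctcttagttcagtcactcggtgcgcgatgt
Pck1 (chr2:173152823-173153072, + strand): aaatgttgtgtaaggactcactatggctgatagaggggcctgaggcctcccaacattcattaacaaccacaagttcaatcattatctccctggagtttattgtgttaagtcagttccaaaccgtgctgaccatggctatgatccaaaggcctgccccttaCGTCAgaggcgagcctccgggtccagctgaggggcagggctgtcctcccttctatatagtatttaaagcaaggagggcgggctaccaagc

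The 3 gluconeogenic enzymes among the 9 genes had lower mean signals in L1-Tg than in WT livers, and none of the differences passed the adjusted threshold of 0.05. Pck1 encodes the cytosolic phosphoenolpyruvate carboxykinase, which commits oxaloacetate to glucose synthesis. In the order of the replicate numbers, which is kept throughout, its signal was 8.11, 8.61 and 8.19 in L1-Tg pools and 8.69, 8.69 and 8.91 in WT pools. Every L1-Tg pool lay below every WT pool. The log2 difference, L1-Tg minus WT, amounted to -0.46 ± 0.16 (SE, 95% interval -0.84 to -0.08, limma adjusted p = 0.517), a level 1.37-fold higher in WT pools. It was -0.61 without L1-Tg replicate 2 (limma adjusted p = 0.380). G6pc encodes the catalytic subunit of glucose-6-phosphatase, the last step before glucose leaves the hepatocyte. Its signal was 3.66, 5.58 and 4.05 in L1-Tg pools and 5.32, 5.29 and 5.69 in WT pools. L1-Tg replicates 1 and 3 lay below all WT pools, while L1-Tg replicate 2 lay among them. The log2 difference amounted to -1.0 ± 0.48 (SE, 95% interval -2.17 to 0.16, limma adjusted p = 0.587). It came to -1.58 ± 0.19 (SE, limma adjusted p = 0.139) without L1-Tg replicate 2, a 2.99-fold higher level in WT pools, and -0.62 without L1-Tg replicate 1. Fbp1 encodes fructose-1,6-bisphosphatase, the enzyme between these steps. Its signal was 9.02, 9.47 and 9.24 in L1-Tg pools and 9.28, 9.46 and 9.43 in WT pools. The groups overlapped, with a log2 difference of -0.15 ± 0.14 (SE, limma adjusted p = 0.735) that was 0.022 after quantile normalization. Without L1-Tg replicate 2 it was -0.26, and the remaining L1-Tg pools lay below all WT pools.

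Both regulators of these enzymes had lower means in L1-Tg pools, with overlapping groups. Ppargc1a encodes the coactivator PGC-1alpha, which glucagon induces and which works with FOXO1 and HNF4A on gluconeogenic promoters. Its signal was 0.74, 1.01 and 0.50 in L1-Tg pools and 1.24, 0.99 and 2.14 in WT pools. WT replicate 3 was the highest, and L1-Tg replicate 2 was above WT replicate 2 by a small margin. The log2 difference amounted to -0.71 ± 0.31 (SE, 95% interval -1.46 to 0.04, limma adjusted p = 0.564), and it was -0.37 without WT replicate 3 and -0.84 without L1-Tg replicate 2. A dimmer Ppargc1a probe also had its highest signal, -1.82, in WT replicate 3, while the others lay between -3.94 and -3.01. Foxo1 had signals of 2.78, 2.98 and 2.88 in L1-Tg pools and 3.20, 2.91 and 3.05 in WT pools. Its log2 difference amounted to -0.17 ± 0.11 (SE, limma adjusted p = 0.656) and was -0.22 without L1-Tg replicate 2. FOXO1 is controlled mainly through its phosphorylation, which an array does not measure.

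Tat encodes tyrosine aminotransferase, an enzyme of amino acid breakdown and a classic target of glucocorticoids and glucagon. Its signal was 5.74, 6.60 and 5.86 in L1-Tg pools and 6.04, 6.20 and 7.04 in WT pools. As for G6pc, L1-Tg replicates 1 and 3 lay below all WT pools and L1-Tg replicate 2 did not. The log2 difference amounted to -0.36 ± 0.34 (SE, limma adjusted p = 0.731), -0.63 without L1-Tg replicate 2 and -0.05 without WT replicate 3.

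The genes that read insulin action had mean differences of opposite sign, and neither passed the adjusted threshold. Irs2 encodes the adaptor that carries the signal from the insulin receptor in liver, and fasting raises its messenger through FOXO1. Its signal was 2.93, 3.15 and 3.06 in L1-Tg pools and 3.25, 3.20 and 3.41 in WT pools. The groups did not overlap, although the gap between them was small, with a log2 difference of -0.24 ± 0.11 (SE, 95% interval -0.50 to 0.02, limma adjusted p = 0.576) that was -0.29 without L1-Tg replicate 2. Igfbp1 encodes a secreted binding protein of insulin-like growth factors that insulin represses within hours. Its signal was 5.81, 6.86 and 6.68 in L1-Tg pools and 5.93, 4.44 and 6.91 in WT pools. The range within WT pools alone was 2.47, and the lowest and the highest of the 6 values were both WT. The log2 difference amounted to 0.69 ± 0.63 (SE, 95% interval -0.83 to 2.21, limma adjusted p = 0.728), and it was 0.03 without WT replicate 2, 1.27 without WT replicate 3 and 0.49 without L1-Tg replicate 2. Slc2a2 encodes GLUT2, the transporter that lets glucose cross the hepatocyte membrane in either direction. Its signal was 4.66, 4.31 and 4.74 in L1-Tg pools and 4.98, 4.51 and 4.33 in WT pools, with a log2 difference of -0.03 ± 0.20 (SE, 95% interval -0.52 to 0.45, limma adjusted p = 0.967) whose sign depended on the scaling and was 0.10 without L1-Tg replicate 2.

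**Figure D1:**
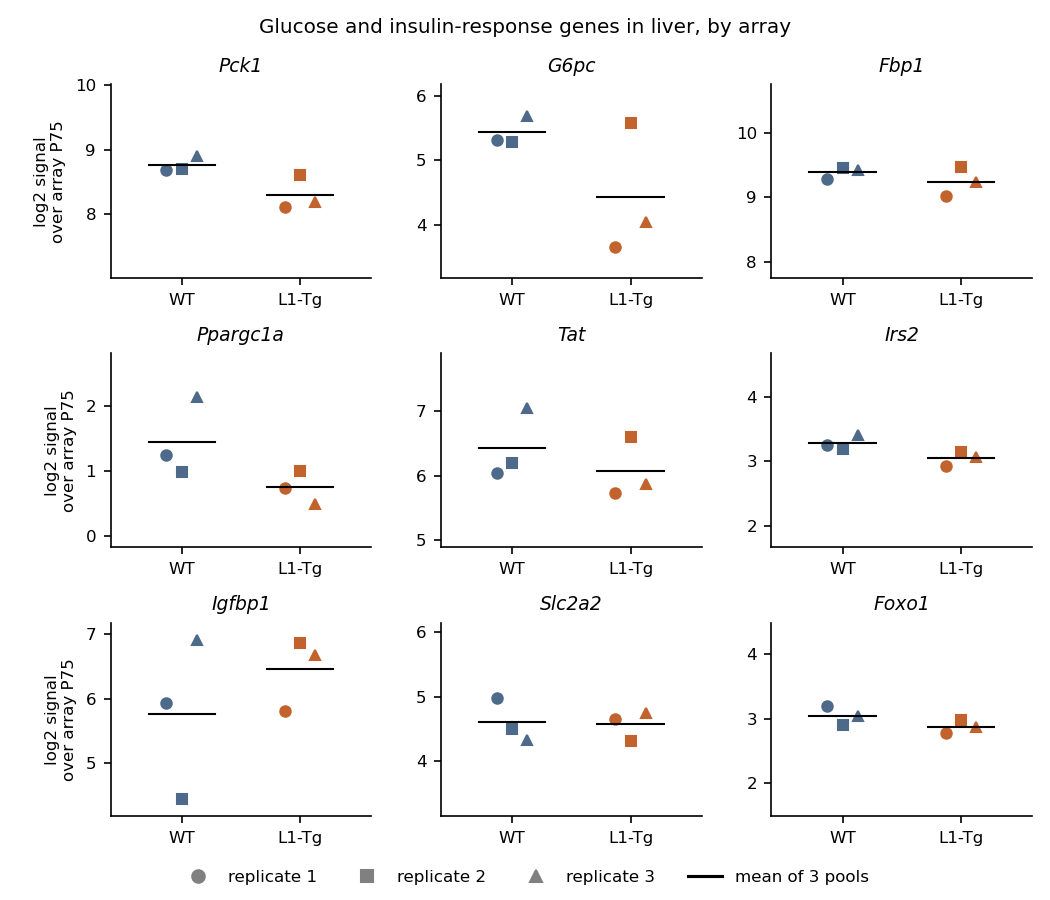
Log2 signal relative to the 75th percentile of the array (vertical axis, spanning 3 log2 units in each panel) for the 9 genes in WT and L1-Tg pools, with the replicate number as the marker shape and the mean of 3 pools as a line. The groups do not overlap for Pck1 and Irs2, L1-Tg replicate 2 lies apart from the other L1-Tg pools for G6pc, and WT pools spread over 2.47 for Igfbp1.

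Counted together, 8 of the 9 genes had a lower mean in L1-Tg pools and 1, Igfbp1, had a higher one, where 57.1% of all genes tested had a lower mean, and the count of lower genes was 7 under the array median, without scaling and in the deposited table, and 6 after quantile normalization. The median log2 difference of the 9 genes was -0.24, against -0.03 for all genes tested. By limma, 0 of the 9 passed the adjusted threshold, against 0.13% of all genes, and 1, Pck1, had an unadjusted p under 0.05, against 8.88% of all genes. L1-Tg and WT values were fully separated for 2 of the 9, or 22.2%, against 15.9% of all genes. The difference index of the study's methods, the difference of the means divided by the sum of the standard deviations on the linear scale, had a modulus above 0.7 for Pck1 (-1.15), Irs2 (-1.07) and Ppargc1a (-0.76), or 33.3% of the 9, against 26.5% of all genes tested. Foxo1 (-0.69) and G6pc (-0.68) lay just inside that limit. An exact permutation test (two-sided) gave p = 0.1 for Pck1 and for Irs2, the smallest value that 3 against 3 pools allow, and between 0.2 and 0.9 for the other genes.

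Single arrays held the extreme values of many of the 9 genes. WT replicate 3 held the highest value of 6 genes (Pck1, G6pc, Ppargc1a, Tat, Irs2 and Igfbp1), and L1-Tg replicate 1 held the lowest value of 6 (Pck1, G6pc, Fbp1, Tat, Irs2 and Foxo1). Within the L1-Tg group, replicate 2 held the highest value of 8 of the 9 genes, all but Slc2a2. That array had the highest acinar signal but was not the only one with it. Without it, 7 of the 9 genes had separate groups, against 27.4% of all genes in the same comparison of 2 with 3 pools. All 7 were lower in L1-Tg pools, 2 of them, Pck1 and G6pc, had an unadjusted p under 0.05, and 0 passed the adjusted threshold in limma. The signals of the acinar markers Amy2a5, Cela1 and Cela2a rank L1-Tg replicate 2 first as well. Without that array the log2 difference of Amy2a5 was -0.0040, but acinar signal did not leave with it for all markers. Of the 4 acinar genes tested, 2 were then higher and 2 lower in L1-Tg pools, with a median log2 difference of 0.47. The 2 higher ones, Cela1 and Cela2a, still had separate groups. Cela2a had -2.19 and 0.25 in L1-Tg replicates 1 and 3, against at most -2.97 in WT pools. The hepatocyte markers had median deviations of -0.17, 0.09 and -0.15 in L1-Tg pools and 0.08, 0.14 and -0.04 in WT pools, so L1-Tg replicates 1 and 3 were the lowest arrays for them. Without L1-Tg replicate 2 all 10 were lower in L1-Tg pools, 5 of them with separate groups, with a median log2 difference of -0.19. The part of the admixed messengers, or of the hepatocyte share, in the values of the 9 genes was not tested.

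**Figure D2:**
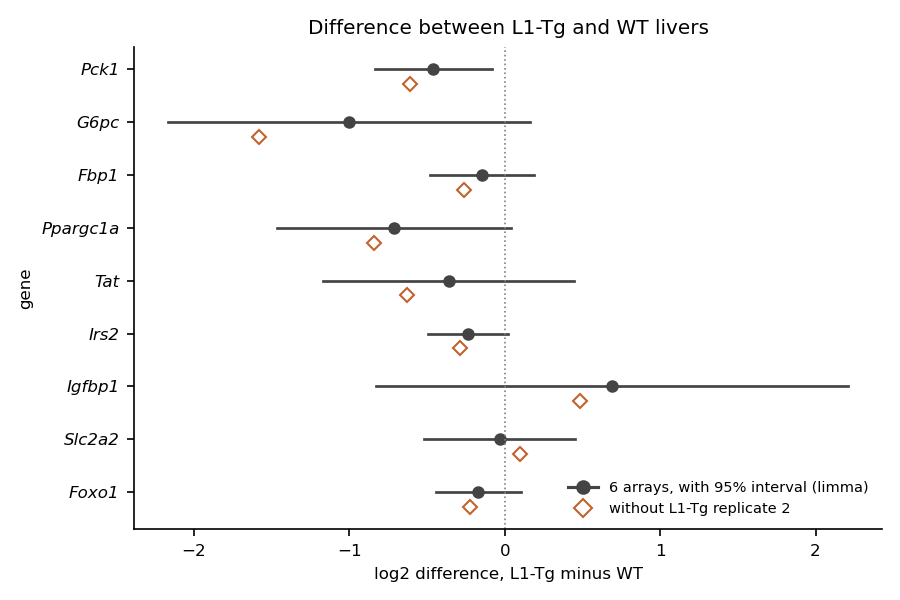
Log2 difference, L1-Tg minus WT (horizontal axis), for the 9 genes, as filled points with 95% intervals from limma on 6 arrays and as open diamonds without L1-Tg replicate 2. The interval excludes 0 only for Pck1, at an unadjusted level, and G6pc moves from -1.0 to -1.58 when the array is left out.

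The wider pathway lists were described by the same counts. Several of them hold some of the 9 genes, which are then counted again. Of 20 tested genes for gluconeogenic enzymes and carriers, 16 had a lower and 4 a higher mean in L1-Tg pools, with a median log2 difference of -0.15. Without Pck1, Fbp1 and G6pc, which belong to this list, 13 of 17 were lower, with a median of -0.14. L1-Tg and WT values were separate for 6 of the 20, or 30%, against 15.9% of all genes. All 6 were lower, and besides Pck1 they were Ldha, Gpt, Gpt2, Pcx and Slc25a11. Ldha, the subunit of lactate dehydrogenase that interconverts lactate and pyruvate, had signals of 8.30, 8.70 and 8.32 in L1-Tg pools and 8.94, 8.84 and 8.78 in WT pools, a log2 difference of -0.41 (limma adjusted p = 0.502). With each array scaled on its median instead, 12 of the 20 were lower and 0 had separate groups, against 13.8% of all genes. That scaling also moved the median of all genes from -0.03 to 0.08. After quantile normalization 0 lower and 2 higher genes of the list had separate groups, against 15.9% of all genes. Without L1-Tg replicate 2 it was 11 lower ones, against 27.4%. Of 24 glycolytic genes, 11 had a lower and 13 a higher mean, with a median of 0.003. This balance held for the 75th percentile, since 5 were lower and 19 higher under the array median, without scaling and in the deposited table. Hk2, the insulin-sensitive hexokinase that is a minor form in liver, had dim signals of -2.66, -3.11 and -2.56 in L1-Tg pools and -3.78, -3.61 and -3.30 in WT pools, a log2 difference of 0.78 (limma adjusted p = 0.393).

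Of 16 genes of glycogen metabolism, 9 were lower and 7 higher, and under the array median 7 were lower and 9 higher. Gbe1, the branching enzyme, had a log2 difference of 0.53 (limma adjusted p = 0.497) with all L1-Tg pools above all WT pools, and so had Gyg, the primer protein glycogenin, with 0.43 (limma adjusted p = 0.548). Gys2, the liver glycogen synthase, had -0.39 (limma adjusted p = 0.558) with overlapping groups. Of 11 genes of pyruvate dehydrogenase, which turns pyruvate into acetyl-CoA, and of its control, 4 were lower and 7 higher. The kinase gene Pdk4, which fasting induces strongly, had signals of -1.15, -0.64 and -1.20 in L1-Tg pools and -1.18, -1.38 and -0.57 in WT pools, a log2 difference of 0.04 (limma adjusted p = 0.964). In these 4 lists 0 genes passed the adjusted threshold in limma. At an unadjusted p under 0.05 there were 2 lower gluconeogenic genes (10%) and 1 higher glycolytic gene (4.17%). There were also 2 higher and 1 lower genes of glycogen metabolism (18.75%) and 0 genes of pyruvate dehydrogenase control, against 8.88% of all genes.

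Of 22 genes of insulin signaling, 14 were lower and 8 higher, with a median of -0.08, and under the array median 8 were lower and 14 higher, with a median of 0.03. Without Irs2 and Foxo1, which belong to this list, 12 of 20 were lower, with a median of -0.06. The smallest p in the full list was that of Tsc2, a brake on mTOR downstream of AKT, whose log2 difference was -0.47 (limma adjusted p = 0.520). Its signals were dim, from -3.60 to -2.85, and its groups overlapped. The insulin receptor Insr differed by -0.03 and the kinase Akt2 by -0.17. Of 19 regulators that act for glucagon, cAMP and glucocorticoids, 17 were lower and 2 higher, with a median of -0.13. Without Ppargc1a, which belongs to this list, 16 of 18 were lower, with a median of -0.12. Groups were separate for 4 of the 19, or 21%, against 15.9% of all genes. Klf15, a factor that raises amino acid use in fasting, had signals of 3.17, 3.56 and 3.42 in L1-Tg pools and 3.63, 3.70 and 3.81 in WT pools, a log2 difference of -0.33 (limma adjusted p = 0.547). Ppargc1b, the relative of Ppargc1a, had -0.27 (limma adjusted p = 0.552). Under the array median 10 of the 19 regulators were lower and 9 higher, with a median of -0.02, where that of all genes was 0.08. The list median was negative under every scaling run, and its size depended on the scaling. Among 7 tested hexose transporters, Slc2a2 included, 5 were lower and 2 higher, and under the array median 2 were lower and 5 higher. Among 7 binding proteins of insulin-like growth factors, Igfbp1 included, 5 were lower, with the smallest p for Igfbp2 at -0.48 (limma adjusted p = 0.498). Again 0 genes passed the adjusted threshold in limma. At an unadjusted p under 0.05 there were 1 lower gene of insulin signaling (4.55%), 2 lower regulators (10.5%) and 1 lower binding protein (14.3%), against 8.88% of all genes.

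The lists of fasting and feeding genes were read per array, as the median over the list of each gene's deviation from its own mean over 6 arrays. The fasting-induced list had 22 tested genes, of which 6 (Pck1, G6pc, Ppargc1a, Tat, Irs2 and Igfbp1) are among the 9. Its median deviation was -0.27, 0.13 and -0.26 in the L1-Tg pools and 0.07, -0.01 and 0.41 in the WT pools, in the order of their replicate numbers. Leaving the 6 shared genes out, the other 16 gave -0.14, 0.13 and -0.20 in L1-Tg pools and 0.06, -0.01 and 0.25 in WT pools, so WT replicate 3 stayed highest. The feeding-induced list, 19 tested genes of lipogenesis, sterol synthesis and sugar use with none of the 9, had -0.28, -0.10 and 0.52 in L1-Tg pools and 0.34, -0.02 and -0.45 in WT pools. WT replicate 3 was thus the highest array for the fasting list and the lowest for the feeding list. L1-Tg replicate 3 was high for the feeding list and low for the fasting list, and L1-Tg replicate 1 was low for both. For Srebf1, the lipogenic factor that insulin induces, the signals were -0.97, -0.43 and 0.21 in L1-Tg pools and 1.06, -0.22 and -1.14 in WT pools. Fasn, the fatty acid synthase, had -1.81, -1.49 and -0.30 in L1-Tg pools and -0.44, -1.71 and -2.31 in WT pools. Both genes were highest in WT replicate 1 or L1-Tg replicate 3 and lowest in WT replicate 3, so the spread within each genotype was wider than the difference between genotypes.

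**Figure D3:**
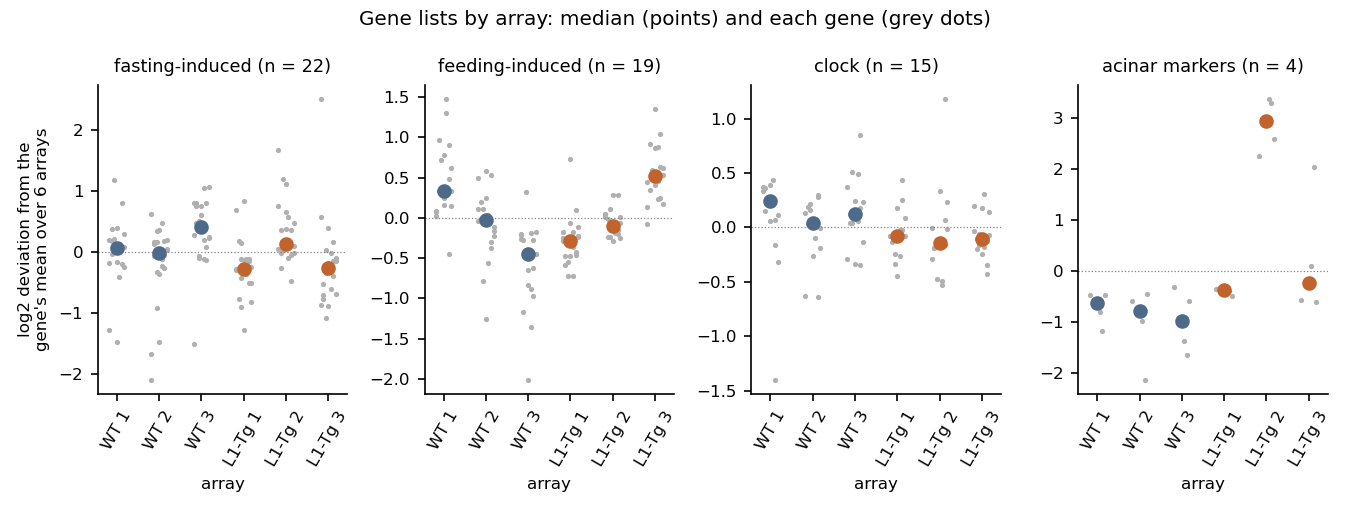
Deviation of each gene from its mean over 6 arrays (vertical axis, log2) on each array (horizontal axis) for fasting-induced, feeding-induced, clock and pancreatic acinar genes. Small grey dots are genes and large points are list medians, blue for WT and orange for L1-Tg. Fasting and feeding medians overlap between genotypes, and clock and acinar medians do not. The acinar median reaches 2.94 in L1-Tg replicate 2 and is -0.37 and -0.23 in L1-Tg replicates 1 and 3, against at most -0.63 in WT pools.

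Over both genotypes, 16 of the 22 fasting-induced genes were lower and 6 higher in L1-Tg pools, with a median log2 difference of -0.32, and 7 of the 19 feeding-induced genes were lower and 12 higher, with a median of 0.06. Without L1-Tg replicate 2 the medians were -0.40 and 0.04, and the fasting-induced genes with separate groups went from 4 lower and 1 higher to 13 lower and 1 higher. Without WT replicate 3 they were -0.30 and -0.13, and 14 of the 19 feeding-induced genes were then lower. Without L1-Tg replicate 3 the feeding-induced median was -0.16, so its sign rested on either of these arrays. In limma 0 genes of these lists passed the adjusted threshold. An unadjusted p under 0.05 was found for 4 lower genes, Pck1 among them, and 2 higher genes of the fasting list, or 27.3%. In the feeding list it was found for 1 higher gene, or 5.26%, against 8.88% of all genes. The fasting-induced genes with the smallest p besides Pck1 had differences of opposite sign. Asns, the asparagine synthetase induced when amino acids are scarce or the unfolded protein response is active, had 2.41, 3.39 and 4.24 in L1-Tg pools and 0.46, -0.36 and 0.23 in WT pools. Its log2 difference amounted to 3.23 ± 0.47 (SE, limma adjusted p = 0.160), and without scaling between arrays the limma adjusted p was 0.0316. Acot1, a thioesterase induced through PPARalpha, had 4.46, 4.80 and 3.88 in L1-Tg pools and 4.93, 5.37 and 5.01 in WT pools, a log2 difference of -0.73 (limma adjusted p = 0.520). Fgf21, the fasting hormone of liver, had -0.33, 1.76 and -0.51 in L1-Tg pools and 1.74, -0.35 and 1.06 in WT pools, with high and low pools in each genotype. Among feeding-induced genes Me1, the malic enzyme that supplies NADPH for lipogenesis, was the only one whose groups did not overlap, with 4.35, 4.53 and 4.88 in L1-Tg pools and 3.80, 3.94 and 3.97 in WT pools, a log2 difference of 0.68 (limma adjusted p = 0.346).

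Glucocorticoid-induced and clock genes were read because gluconeogenic genes follow both. Of 11 tested glucocorticoid-induced genes, 8 were lower and 3 higher. Groups were separate for 4 of the lower and 1 of the higher, or 45%, against 15.9% of all genes. The separate lower ones included Pck1, and Per1, which is counted again among the clock genes below. The median log2 difference of this list was -0.25, and -0.10 without its members Pck1 and Tat. Under the array median 6 were lower and 5 higher. Groups were then separate for 2 of the lower and 1 of the higher, against 13.8% of all genes. Lcn2, a secreted lipocalin that inflammation induces as well, had 3.67, 3.56 and 3.12 in L1-Tg pools and 0.94, 2.08 and 1.96 in WT pools, a log2 difference of 1.79 (limma adjusted p = 0.262). Zbtb16 had a log2 difference of -0.42 (limma adjusted p = 0.498). Of 15 clock genes, 11 were lower and 4 higher, and 5, or 33.3%, had separate groups, all lower. Per1, which glucocorticoids and feeding time both set, had 2.76, 2.62 and 2.93 in L1-Tg pools and 3.36, 3.31 and 3.60 in WT pools, a log2 difference of -0.65 (limma adjusted p = 0.290). Ciart had -0.42, -0.69 and -0.34 in L1-Tg pools and 0.28, -0.12 and 0.33 in WT pools, a log2 difference of -0.65 (limma adjusted p = 0.403). Cry2, a repressor of the clock that also restrains gluconeogenic transcription, had -0.31 (limma adjusted p = 0.458). The median deviation of the clock list was -0.07, -0.14 and -0.11 in L1-Tg pools and 0.24, 0.04 and 0.12 in WT pools, with all L1-Tg pools below all WT pools. In limma 0 genes of either list passed the adjusted threshold. An unadjusted p under 0.05 was found for 5 clock genes, all lower, or 33.3%, against 8.88% of all genes. Under the array median 9 of the 15 were lower and 2 had separate groups, against 13.8% of all genes. The hour of collection was not given in the sources used here, so a difference in hour between the pools and a difference between genotypes cannot be told apart.

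Markers of other cells were counted beside these lists. All 8 Kupffer cell markers had a higher mean in L1-Tg pools, with summed signals of 155.5 to 182 against 97.83 to 181 in WT pools, and in limma 0 of them passed the adjusted threshold or an unadjusted p of 0.05. Without WT replicate 3, 6 of the 8 had an unadjusted p under 0.05 and separate groups, with a median log2 difference of 0.61 against 0.31 on all arrays. In that setting 2824 of 22537 genes had an unadjusted p under 0.05 and 32% of all genes had separate groups. Without WT replicate 1 the median of the Kupffer cell markers was 0.11 and 6 were higher. Lymphocyte markers summed to 88.82 to 106 in L1-Tg pools and 99.27 to 234.4 in WT pools. That sum was carried by Cd4, with a log2 signal of 7.76 in WT replicate 2, while 5 of the 8 markers had a higher mean in L1-Tg pools, with a median log2 difference of 0.36. Erythroid markers summed to 148.8 to 321.4 in L1-Tg pools and 150.3 to 175.5 in WT pools, with the highest median deviation, 0.64, in L1-Tg replicate 2. Adipocyte markers summed to 4.015 to 7.93 and 3.097 to 8.632, with Lep above background on 0 arrays, and kidney tubule markers to 1.946 to 2.153 and 1.918 to 2.758, with Slc12a1 above background on 0 arrays. The part of these cells in the values of the 9 genes was not tested.

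The genes whose profile over the 6 arrays was most like that of 3 of the members were looked up among the genes with a range of at least 1 on the log2 scale, 2079 for Pck1 and 2078 for Ppargc1a and Igfbp1. For Pck1 they were Marveld3, Sds and Adamdec1, with Pearson's r of 0.975, 0.972 and 0.972 over 6 arrays. Sds encodes serine dehydratase, which feeds serine into gluconeogenesis, and had 4.82, 5.94 and 4.88 in L1-Tg pools and 5.76, 5.71 and 6.38 in WT pools. For Ppargc1a they were Mrrf, Cyp2j9 and Ccnf, with r of 0.989, 0.981 and 0.964, and for Igfbp1 they were Slc5a11, Mest and Spata21, with r of 0.952, 0.937 and 0.933. Of the candidates, 7 had r above 0.95 with Pck1, 7 with Ppargc1a and 1 with Igfbp1. All points share 1 slide, and r is given as a description.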

How the data were processed

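Cy3-labeled liver cRNA of 3 WT and 3 L1-Tg pools was measured on 1-color arrays of 62976 spots. The authors processed the scans with Agilent Feature Extraction 10.10.1.1 (file headers) and deposited processed intensity per spot, on a linear scale and background-corrected but not scaled between arrays. They also deposited median signal intensity and background, flags of 0 or 1 for spots well above background, and a value table of intensity.

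Here processed signals were divided by the 75th percentile of their array (intensity 296.4 to 377.8) and put on the log2 scale. Control spots (3671) were left out and non-uniform spots (1 to 22 per array) treated as missing. Of each gene the brightest probe was used, among those well above background on all arrays of a group. Symbols came from RefSeq accessions (27235 of 28685 matched). Groups were compared with lmFit and eBayes of limma 3.58.1 (R 4.3.3), as a two-sided test whose p-values were adjusted by Benjamini-Hochberg over 22340 genes (threshold 0.05), and the pipeline was tested on simulated data. Packages jsonlite 2.0.0 and data.table (version 1.17.8) read the inputs. The difference index (threshold 0.7) follows the methods.

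The 9 genes and the 19 other lists were chosen with earlier results of these data known. The genes named are the 9, the top 3 by p from the other lists (not all of them are described), the 3 most alike in profile to Pck1, Igfbp1 and Ppargc1a, and Npc1l1. The genes named only for non-overlapping groups, and Pdk4, Insr, Akt2, Srebf1, Fasn and Fgf21 where outside this rule, were picked with their values known. The alternatives were other scalings, normexp background correction on median signals, the deposited table, other filters and the mean of a gene's probes. A replicate block, an ordinary Student's t-test with equal variances, a stricter index and each array left out were also run.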

Additional observations from a re-analysis of the deposited data

How the results depend on the processing

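Under all alternatives run, 0 of the 9 genes passed the adjusted threshold in limma. Where 1 array was left out, the smallest adjusted p among the 9 was 0.139 to 0.935, and their median log2 difference was -0.29 to -0.17. It was -0.13 under the array median, which moved the median of all genes from -0.03 to 0.08. Of the 9 genes, those with separate groups numbered 0 under the array median, 1 without scaling, 1 after quantile normalization and 4 after normexp. In that order, 13.8%, 8.33%, 15.9% and 16.1% of all genes had separate groups. With 1 array left out, 2 to 7 of the 9 had separate groups, against 21.4% to 32% of all genes. The difference index was passed by 0 of the 9 under the array median, against 24.3% of all genes. With 1 array left out it was passed by 2 to 7, against 28.3% to 38.6%. The counts of 7 came without L1-Tg replicate 2, where the shares of all genes were 27.4% and 34%. Without WT replicate 2 the counts were 4 and 5, against 26.8% and 32.5%.

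Over all genes, 29 were called by limma. An ordinary Student's t-test with equal variances called 0 after adjustment, with 1841 at an unadjusted p under 0.05. Limma called 10 without a filter on dim probes, 11 with a replicate block and 15 to 35 with 1 array left out. The replicate numbers did not pair the pools: the correlation of deviations was -0.16, 0.11 and 0.02 for numbers 1 to 3, and 2 of 6 arrays correlated best with their own number. With the block 0 of the 9 genes was called and their smallest adjusted p was 0.595.

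The sign of Fbp1 turned after quantile normalization (0.022). That of Slc2a2 turned under the array median (0.075), the deposited table (0.016), no scaling (0.022) and quantile normalization (0.021), and it was -0.17 to 0.15 with 1 array left out. With 1 array left out, Igfbp1 was 0.03 to 1.27, and signs turned for Cidec (-0.10 to 0.75), Amy2a5 (-0.0040 to 1.41), Fabp4 (-0.17 to 0.43), Hba-a1 (-0.089 to 0.48) and Cfd (-2.55 to 0.23). The causes were not tested. Of the other named genes' alternatives 790 kept direction and side of the threshold, and Asns passed it without scaling.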
